A study of Danio rerio with 4 samples.

Results

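The cadherins and protocadherins are calcium-dependent cell surface proteins that join neighbouring cells. They were taken as every row of the deposited table whose symbol begins with cdh and a digit or with pcdh, which gave 69 of 20306 genes. Testing asked for 2 or more of the 4 libraries to reach 10, which 55 of the 69 did, as did 16928 genes of the whole table, while 14 stayed below that level. The 69 rows carry 66 symbols, since cdh23, pcdh11 and pcdh2ab9 each stand on 2 rows, which are told apart here by identifier. By name and position they fall into 4 type I classical cadherins, 6 type II classical cadherins, 10 other cadherins, 18 protocadherins outside the gene clusters, 22 rows of a protocadherin cluster on chromosome 10 and 9 rows of a second cluster on chromosome 14.

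The libraries were bulk RNA sequencing of coronary endothelial cells, which line the vessels of the heart, from WT zebrafish at 7 days after cryoinjury of the ventricle, a freezing injury. All cells were sorted for the red reporter -0.8flt1:RFP and then by a yellow reporter of the chemokine receptor gene cxcr4a. The tested population, headed Regenerating in the table (2 libraries), was taken to be the cxcr4a:YFP+ gate, and the population headed Non-Regenerating (2 libraries) to be the cxcr4a:YFP- gate. The labels do not pair the headings with the gates, so this match comes from knowledge of the reporter lines. Both groups thus share the genotype, the injury, the day and the flt1 reporter, a transgene driven by a short fragment of the flt1 promoter. The labels give neither the age nor the number of the fish, and they do not state whether the replicates are different animals. The p-values below thus reflect variation among these particular libraries, which may be technical only.

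Classical cadherins bind cadherins of the same kind on the next cell and hold beta-catenin and alpha-catenin on their cytoplasmic tail, which ties the contact to actin. In endothelium the main one is VE-cadherin, the product of cdh5, and endothelial cells also carry N-cadherin, the product of cdh2, which is known for contacts with pericytes and for the intercalated discs of heart muscle. Protocadherins lack the beta-catenin binding tail. The delta protocadherins stand alone in the genome, while clustered protocadherins are made by joining 1 of many variable exons to constant exons that a cluster shares.

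Values are normalized counts, deposited as whole numbers after rounding by the authors. They are not divided by transcript length, so levels are compared between libraries and not between genes. The libraries summed to 10662434 and 10481747 in Regenerating and to 10761712 and 10564201 in Non-Regenerating, and the 69 rows made up 0.328% and 0.299% in Regenerating, against 0.303% and 0.301% in Non-Regenerating. All 24 pan-endothelial markers were in the table and tested, with summed values of 98949 and 108326 in Regenerating against 114281 and 119361 in Non-Regenerating. Transcripts of other cell types were present as well. Over 24 of 28 listed cardiomyocyte markers the sums were 78693 and 30854 against 14151 and 9231, and over 17 of 18 mural cell markers they were 23912 and 17020 against 15337 and 10352. Of the 17 mural markers 12 overlapped between the groups, 4 lay higher in Regenerating (23.5%) and 1 lower (5.88%), beside 21.8% and 21.5% of all tested genes. The largest values among them were those of myh11a, at 7757 and 7956 against 4029 and 3298. Over all 16 endocardial markers the sums were 21394 and 21627 against 31277 and 26818, over 21 of 22 epicardial and fibroblast markers 43209 and 43155 against 61349 and 54028, and over 25 of 26 macrophage and monocyte markers 19307 and 22058 against 15823 and 12419. In the macrophage and monocyte list gpnmb alone read 3390 and 4646 in Regenerating against 110 and 15 in Non-Regenerating. Of the 25 markers in that list 13 overlapped between the groups, 10 lay higher in Regenerating and 2 lower. Of all 20306 genes 21.0% lay higher and 20.4% lower. Over 10 of 15 lymphoid markers the sums were 309 and 314 against 129 and 72, with the B cell genes pax5 and cd79b at 0 in both Non-Regenerating libraries. Of these 10 markers 6 lay higher in Regenerating and 4 overlapped. The overlapping ones include lck, at 8 and 6 against 25 and 1, and zap70, at 9 and 4 against 30 and 0. Of the 7 that were tested, 3 entered only through Regenerating, which fixed their direction. The table holds only genes that reach 5 in some library, and no marker of these lists that it holds was at 0 in all 4 libraries. In bulk libraries, fewer cells of a type and less RNA per cell cannot be told apart.

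The widest gaps between the groups were those of cdh4 (R-cadherin), whose fitted value was 12.8-fold lower in Regenerating, and of the delta protocadherin gene pcdh19, 8.74-fold higher. The VE-cadherin gene cdh5 differed by 1.05-fold. In the chromosome 10 cluster 17 of 19 tested rows had a fitted log2 fold change above 0, that is, higher in Regenerating, beside 50.2% of all tested genes. The spans of these rows overlap, so they may share reads, and 2 of the 17 entered the test only through Regenerating. No cadherin or protocadherin passed an adjusted p under 0.05 with limma and Benjamini-Hochberg adjustment over all 16928 genes, where 0.00591% of genes did. At an unadjusted p under 0.05 there were 7 members above 0 and 2 below 0 of 55, or 12.7% and 3.64%, beside 7.62% and 5.19% of all tested genes. The 7 were pcdh19, cdh24b, pcdh7b, pcdh1a4, pcdh1a6, pcdh1gc6 and the pcdh11 row ENSDARG00000098652, and the 2 were cdh4 and pcdh17. Of the 7, cdh24b entered the test only through Regenerating, which fixed its direction. When a library was left out, neither count rose, and fewer of all tested genes passed this threshold. Such a fit leaves a single library in a group, so its counts are not given. The median log2 fold change over the tested members was then 0.41 to 0.75.

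The fitted log2 fold change was above 0 in 38 of the 55 tested members, below 0 in 16 and at 0 in 1, and 50.2% of all tested genes were above 0. Its median was 0.60 over the members and 0.0013 over all tested genes. Both Regenerating libraries lay above both Non-Regenerating libraries in 23 of 55, or 41.8%, beside 21.8% of all tested genes, and below them in 5, or 9.09%, beside 21.5%. Counting all 69 rows, untested ones included, 25 lay above, 9 lay below and 35 overlapped, beside 21.0% above and 20.4% below of all 20306 genes. These counts are a description of the list only. The spans of clustered rows overlap, and 4 members (cdh24b, cdh29, pcdh1g26 and pcdh1g30) entered the test only through the Regenerating libraries and 1 (cdh26.2) only through the Non-Regenerating libraries. Outside the clusters, 10 of 30 tested members lay above and 5 below.

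**Figure D1:**
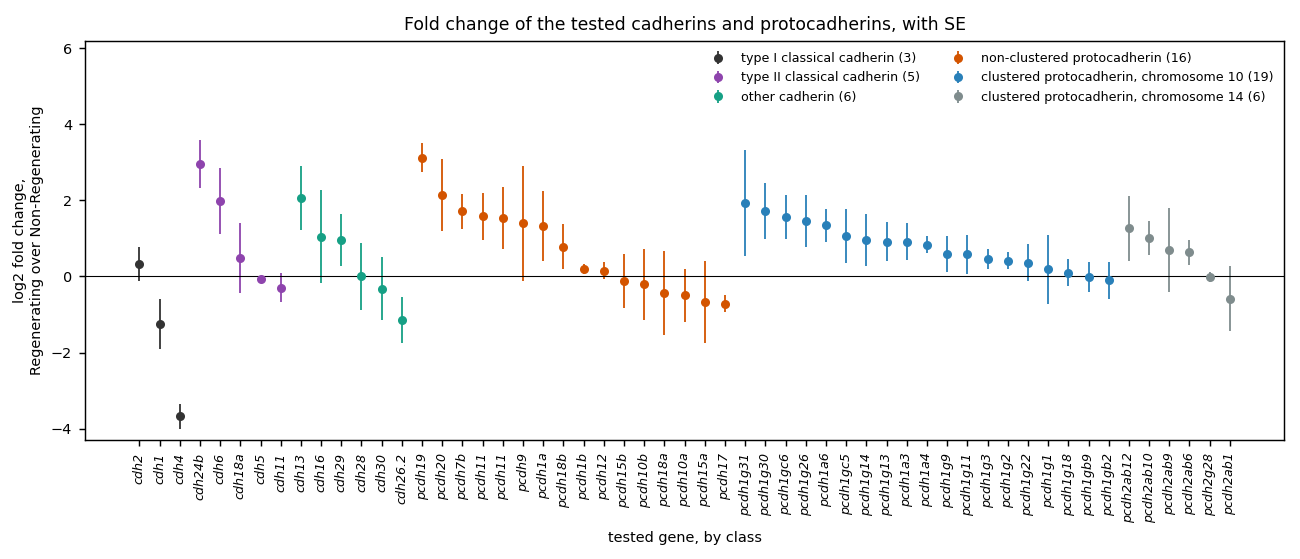
Fitted log2 fold change of Regenerating over Non-Regenerating (y axis) for the 55 tested genes (x axis), grouped by class; points are estimates from the log2(value + 1) fit and bars are the SE. The lowest point is cdh4 at -3.68 and the highest is pcdh19 at 3.13. Of the 19 points of the chromosome 10 cluster 17 lie above 0, among them 2 rows that entered the test only through Regenerating.

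Among the type I classical cadherins, cdh4 (ENSDARG00000015002, chromosome 11, 20371179 to 20826753, plus strand, danRer11), which encodes R-cadherin and is best known from retina and neurons, had 44 and 30 normalized counts in Regenerating, against 501 and 454 in Non-Regenerating. The groups lay far apart and the libraries within each group were close. The Regenerating mean was 37 ± 9.9, against a Non-Regenerating mean of 477.5 ± 33.2 (SD, n = 2 each). The fitted log2 fold change was -3.68 (SE 0.33), a fold of 12.8, with an adjusted p of 0.102 by limma, and by unadjusted p cdh4 ranked 14 among the 16928 genes. Leaving out each library in turn gave -3.95 to -3.41. The endocardial and the epicardial and fibroblast marker sums given above were also lower in both Regenerating libraries. Of 15 tested endocardial markers 14 had a fitted log2 fold change below 0 and 1 above 0. The 20 tested epicardial and fibroblast markers were split, with 13 below 0 and 7 above 0. Without overlap, 11 of these 20 lay lower in Regenerating (55%) and 6 higher (30%), beside 21.5% and 21.8% of all tested genes. The neural and glial sum over 14 of 20 markers was 660 and 641 in Regenerating, against 1001 and 743 in Non-Regenerating. In that list elavl4, an RNA-binding protein gene of neurons, read 26 and 27 against 457 and 90. Without it the sums were 634 and 614 against 544 and 653, which overlapped. The gene nrxn1a also lay lower in Regenerating without overlap, at 7 and 10 against 53 and 31. Of the 8 tested neural and glial markers 5 had a fitted log2 fold change above 0 and 3 below 0. Without overlap, 3 of the 14 markers lay lower in Regenerating and 2 higher, beside 20.4% and 21.0% of all 20306 genes. In every library 3 of the 14 stayed under 10. The synapse gene syn1 read 1 and 7 in Regenerating, against 0 in both Non-Regenerating libraries. The part of these marker lists in the cdh4 values was not tested.

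N-cadherin did not separate the groups. The gene cdh2 (ENSDARG00000018693, chromosome 20, 17581881 to 17819238, plus strand) had 4004 and 2674 in Regenerating, against 4048 and 1700 in Non-Regenerating. Replicate 1 was the higher library in each group, and the groups overlapped throughout. The log2 fold change was 0.32 (SE 0.45, adjusted p = 0.841 by limma), and it was -0.31 without Non-Regenerating replicate 2. Within a library, cdh2 stood at 0.343 and 0.23 of the cdh5 value in Regenerating and at 0.34 and 0.135 in Non-Regenerating.

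E-cadherin, the cadherin of epithelia, was near the floor of the data. Its gene cdh1 (ENSDARG00000102750) had 11 and 23 in Regenerating, against 57 and 27 in Non-Regenerating, a fitted log2 change of -1.25 (SE 0.66, adjusted p = 0.523). The M-cadherin gene cdh15, known from skeletal muscle precursors, had 11 and 5 against 2 and 9 and was not tested.

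Among the type II cadherins, the VE-cadherin gene cdh5 (ENSDARG00000075549, chromosome 7, 44445595 to 44471544, plus strand) had 11674 and 11643 in Regenerating, against 11920 and 12629 in Non-Regenerating. Both Regenerating libraries lay just below both Non-Regenerating libraries. The log2 fold change was -0.074 (SE 0.076), a fold of 1.05, with an adjusted p of 0.767 by limma.

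The other type II cadherins were of lower value and less even. The gene cdh24b (ENSDARG00000077996, chromosome 2, 38554260 to 38709083, plus strand) had 38 and 61 in Regenerating, against 4 and 7 in Non-Regenerating. Its groups did not overlap, and since it reached 10 only in Regenerating its direction was fixed by entry into the test. The log2 fold change was 2.96 (SE 0.62, adjusted p = 0.195 by limma), and 1.92 with a pseudocount of 10.

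The gene cdh6 (ENSDARG00000014522, chromosome 2, 28049046 to 28102264, minus strand), which encodes K-cadherin and is known from the developing kidney, had 554 and 462 in Regenerating, against 324 and 50 in Non-Regenerating. The groups did not overlap, but the Non-Regenerating libraries differed more from each other than the nearer of them did from Regenerating. Its log2 fold change was 1.98 (SE 0.87, adjusted p = 0.447), or 3.31 when Non-Regenerating replicate 1 was left out and 0.64 when replicate 2 of that group was. The gene cdh11, whose product OB-cadherin is known from fibroblasts and bone-forming cells, had 111 and 97 against 165 and 98, with overlap between the groups and a fitted log2 change of -0.29 (SE 0.38), or 0.082 without Non-Regenerating replicate 1. The neuronal type II genes cdh10a and cdh18a did not exceed 17 in any library.

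Type II genes lie near each other on 2 chromosomes. On chromosome 7, cdh11 and cdh5 are 588 kb apart, with cdh16 386 kb beyond. On chromosome 2, cdh6, cdh10a and cdh18a follow each other at gaps of 788 kb and 315 kb. Of these neighbours, cdh5 lay slightly lower in Regenerating and cdh11 overlapped, while cdh16, the kidney cadherin gene, had 16 and 7 in Regenerating, against 15 and 1 in Non-Regenerating, and overlapped.

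Of the 10 other cadherins, 6 were tested and 0 had an unadjusted p under 0.05, beside 12.8% of all tested genes. T-cadherin, a cadherin held by a lipid anchor and without a cytoplasmic tail, is known from vessel walls and heart muscle as a receptor for adiponectin. Its gene cdh13 (ENSDARG00000014215, chromosome 18, 13792490 to 14134035, plus strand) had 340 and 65 in Regenerating, against 43 and 28 in Non-Regenerating. Regenerating replicate 1 stood apart from the other 3 libraries, although the groups did not overlap. The log2 fold change was 2.07 (SE 0.84, adjusted p = 0.407 by limma), or 0.89 without Regenerating replicate 1 and 3.25 without Regenerating replicate 2. Regenerating replicate 1 also had the highest cardiomyocyte sum, 78693, and the highest mural cell sum, 23912, and their part in the cdh13 values was not tested.

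The remaining cadherins had a highest value of 33. They include the tip link gene cdh23 of hair cells, at 6 and 6 in Regenerating, against 12 and 4 in Non-Regenerating on ENSDARG00000007561 and at 0 and 1 against 5 and 9 on ENSDARG00000094454. The span of the first of these rows also holds vsir on the other strand. A group next to cdh1 on chromosome 7 (cdh28, cdh29 and cdh30) spans 53152108 to 53231081 and had values between 4 and 33. The spans of cdh28 and cdh29 overlap by 10624 bases on the same strand, and cdh29 also overlaps the pseudogene BX322631.1, so their values are uncertain. On chromosome 23, cdh26.2 had 9 and 9 in Regenerating against 17 and 26 in Non-Regenerating, and its neighbour cdh26.1 had 5 and 2 against 10 and 9. Both lay lower in Regenerating without overlap, and cdh26.2 had an adjusted p of 0.524. The direction of cdh26.2 was fixed by entry into the test through Non-Regenerating alone, and cdh26.1 was not tested.

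**Figure D2:**
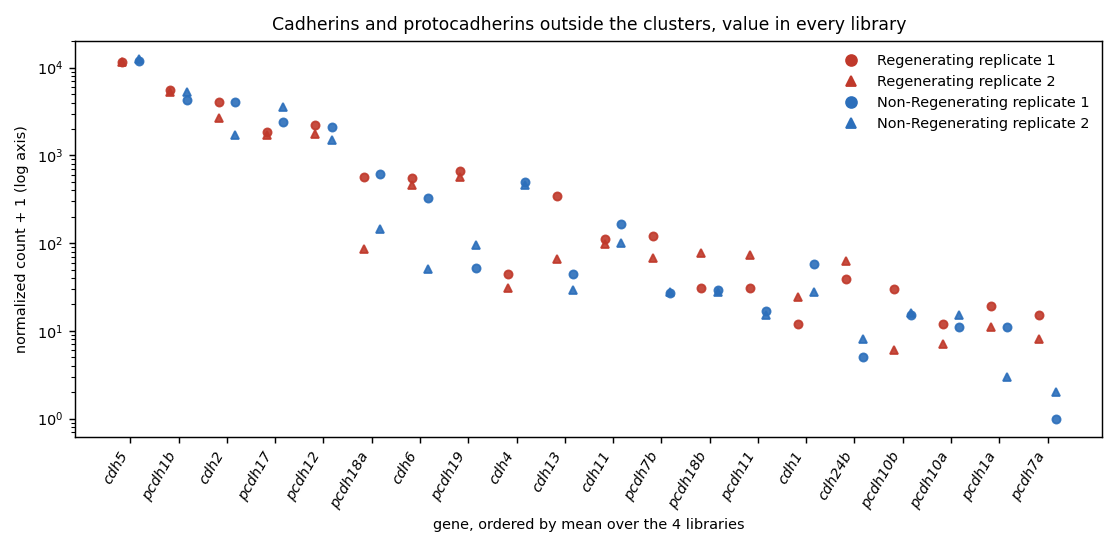
Normalized count + 1 on a log axis (y) in every library for the 20 named genes outside the clusters (x, ordered by mean); red marks Regenerating and blue Non-Regenerating, circles replicate 1 and triangles replicate 2. The groups lie widely apart for cdh4 and pcdh19, while for cdh2 and pcdh18a the replicates of a group lie farther apart than the groups.

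Among the 18 protocadherins outside the clusters, pcdh19 (ENSDARG00000034344, chromosome 14, 40300961 to 40390757, minus strand) had 670 and 561 normalized counts in Regenerating, against 51 and 94 in Non-Regenerating. This delta protocadherin is known to act together with N-cadherin in the zebrafish neural tube and, in humans, as an epilepsy gene. The groups did not overlap, with a Regenerating mean of 615.5 ± 77.1, against a Non-Regenerating mean of 72.5 ± 30.4 (SD, n = 2 each). The log2 fold change was 3.13 (SE 0.37), a fold of 8.74, with an adjusted p of 0.153 by limma and a rank of 36 among all tested genes by unadjusted p. Without each library in turn it was 2.69 to 3.56. The annotated span holds an antisense gene, CR318607.1, with 11 and 14 in Regenerating, against 1 and 5 in Non-Regenerating. Since the sources used here do not state whether counting used strand, reads of the pair cannot be told apart. The cardiomyocyte, mural cell, macrophage and monocyte, and lymphoid marker sums given above were also higher in both Regenerating libraries. Marker by marker, 22 of the 24 cardiomyocyte genes lay higher in Regenerating without overlap and 2 overlapped. Of the 10 lymphoid genes 6 lay higher and 4 overlapped, beside 21.0% of all 20306 genes that lay higher. However, 12 of the 17 mural and 13 of the 25 macrophage and monocyte genes overlapped between the groups. The mural sums leaned on myh11a, at 7757 and 7956 in Regenerating against 4029 and 3298 in Non-Regenerating. The macrophage and monocyte sums leaned on gpnmb, at 3390 and 4646 against 110 and 15. The part of these marker lists in the pcdh19 values was not tested.

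The gene pcdh17 (ENSDARG00000027041, chromosome 11, 32576300 to 32723851, minus strand), a delta protocadherin known from synapses, had 1831 and 1714 in Regenerating, against 2369 and 3578 in Non-Regenerating. It lay lower in Regenerating without overlap, and the Non-Regenerating libraries were the more spread. The log2 fold change was -0.72 (SE 0.22, adjusted p = 0.301 by limma), or -0.42 when Non-Regenerating replicate 2 was left out and -1.01 when replicate 1 of that group was. The pan-endothelial marker sum was 98949 and 108326 in Regenerating, against 114281 and 119361 in Non-Regenerating. Without vwf, the von Willebrand factor gene, at 4126 and 5988 against 13350 and 9620, that sum was 94823 and 102338 against 100931 and 109741, and the groups overlapped. The endocardial sum was also lower in both Regenerating libraries, and the part of these markers in the pcdh17 values was not tested.

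Vascular endothelial cadherin 2, the product of pcdh12, is a protocadherin of endothelial junctions. The gene (ENSDARG00000076594, chromosome 14, 16308840 to 16328331, minus strand) had 2231 and 1758 in Regenerating, against 2124 and 1492 in Non-Regenerating. The groups overlapped, and the log2 fold change was 0.15 (SE 0.23, adjusted p = 0.849). The delta protocadherin gene pcdh1b (ENSDARG00000036175, chromosome 14, 37545341 to 37831941, plus strand) had 5622 and 5209 against 4250 and 5269. It also overlapped and had a fitted log2 change of 0.19 (SE 0.14, adjusted p = 0.645). Its paralogue pcdh1a had 18 and 10 against 10 and 2.

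The gene pcdh7b (ENSDARG00000060610, chromosome 7, 63324888 to 63570206, plus strand), a delta protocadherin, had 118 and 67 in Regenerating, against 26 and 27 in Non-Regenerating. The groups did not overlap, and the log2 fold change was 1.71 (SE 0.46, adjusted p = 0.255 by limma), or 1.31 without Regenerating replicate 1. Regenerating replicate 1 was the higher library here as in the cardiomyocyte sum, whose part was not tested. Its paralogue pcdh7a read 14 and 7 in Regenerating, against 0 and 1 in Non-Regenerating and was below the filter. The symbol pcdh11 stands on 2 rows of chromosome 14 whose spans overlap by 1449 bases. Row ENSDARG00000098652 had 30 and 73 in Regenerating against 16 and 14 in Non-Regenerating (log2 fold change 1.58, SE 0.62, adjusted p = 0.389). With Regenerating replicate 1 left out its log2 fold change was 2.21, and with Regenerating replicate 2 left out it was 0.96. Row ENSDARG00000105441 had 17 and 34 against 4 and 14, again with no overlap (log2 fold change 1.54, SE 0.82, adjusted p = 0.526).

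The paralogues pcdh18a and pcdh18b behaved differently between libraries. The gene pcdh18a (ENSDARG00000089805, chromosome 1, 13260809 to 13271569, minus strand) had 562 and 84 in Regenerating, against 606 and 143 in Non-Regenerating. Replicate 1 was high and replicate 2 low in each group, and the groups overlapped, so the log2 fold change of -0.43 had an SE of 1.1. Leaving out replicate 2 of Regenerating gave 0.93 and leaving out replicate 1 of Non-Regenerating gave 0.60, whereas leaving out either of the other two gave -1.80 (Regenerating replicate 1) and -1.47 (Non-Regenerating replicate 2). The gene pcdh18b had 30 and 76 in Regenerating against 28 and 27 in Non-Regenerating, with the groups just apart.

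The same split of the libraries appeared in markers of mural cells, the pericytes and smooth muscle around vessels, and of cardiomyocytes. Of the 17 mural markers, 13 were higher in replicate 1 in both groups and 2 higher in replicate 2 in both. The platelet-derived growth factor receptor gene pdgfrb read 1046 and 195 in Regenerating, against 1674 and 295 in Non-Regenerating. The pericyte channel gene kcnj8 read 167 and 10 against 135 and 18. Of the 24 cardiomyocyte markers, 19 were higher in replicate 1 in both groups and 0 in replicate 2 in both. Of the 24 pan-endothelial markers, 20 were higher in replicate 2 in both groups. Other lists leaned to replicate 1 less strongly. It was higher in both groups for 11 of 25 macrophage and monocyte, 9 of 21 epicardial and fibroblast and 8 of 16 endocardial markers. Replicate 2 was higher in both groups for 2, 2 and 4 of these. The part of mural and cardiomyocyte transcripts in the values of pcdh18a and cdh2 was not tested.

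**Figure D3:**
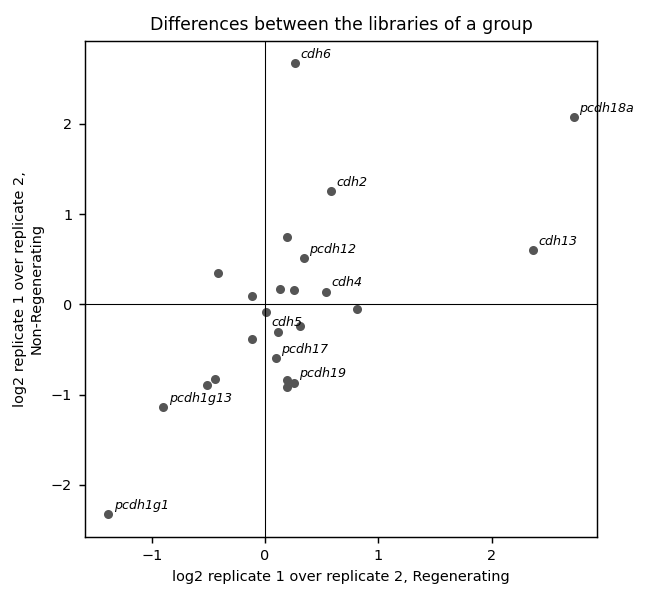
Log2 ratio of replicate 1 over replicate 2 in Regenerating (x) and in Non-Regenerating (y) for the 24 tested cadherins and protocadherins with a mean of at least 50, from value + 1. pcdh18a and cdh2 lie above 0 on both axes, cdh6 is spread in Non-Regenerating and cdh13 in Regenerating, and cdh5 lies near the origin.

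Over all 55 tested members, 14 differed more than 2-fold between the Regenerating libraries and 22 between the Non-Regenerating libraries. In both groups together, 15 were higher in replicate 1 and 14 higher in replicate 2. The rest of the protocadherins outside the clusters were low. The genes pcdh8, pcdh9, pcdh10a, pcdh10b and pcdh20 did not exceed 30, among them pcdh20 with 29 and 30 in Regenerating, against 15 and 2 in Non-Regenerating (adjusted p = 0.451). The hair cell gene pcdh15a had 44 and 12 against 91 and 15, and pcdh15b had 29 and 16 against 39 and 14. Both were higher in replicate 1 of each group, and pcdh15a overlaps si:dkeyp-86d6.2 on its strand.

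The chromosome 10 cluster lies on the plus strand between 21559605 and 21820133 and is represented by 22 rows. All 22 overlap at least 2 others on the same strand, 8 of them end at the same base, 21820057, and pcdh1a3 and pcdh1a6 have identical spans. Reads in any shared constant exons would belong to no single row, and how the authors assigned them is not given in the sources used here, so each row is uncertain as the value of a single isoform. Within these limits, 17 of 19 tested rows had a log2 fold change above 0, with a median of 0.84, beside 50.2% of all tested genes. Without overlap, 10 of 19 lay higher in Regenerating and 0 lower, beside 21.8% and 21.5% of all tested genes. The 17 and the 10 both include pcdh1g26 and pcdh1g30, whose direction was fixed by entry into the test through Regenerating alone. Since the spans overlap, the rows may share reads, so these are counts of rows and not of independent observations.

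The 3 rows of the alpha part of this cluster each lay higher in Regenerating without overlap. The row pcdh1a4 (ENSDARG00000097170) had 369 and 336 in Regenerating, against 209 and 185 in Non-Regenerating, a fitted log2 change of 0.84 (SE 0.23, adjusted p = 0.256 by limma). The row pcdh1a6 (ENSDARG00000104598) had 58 and 52 against 21 and 21, a fitted log2 change of 1.35 (SE 0.44, adjusted p = 0.323). The row pcdh1a3 had 46 and 57 against 21 and 34. Summed over the 3 rows the values were 473 and 445 in Regenerating, against 251 and 240 in Non-Regenerating, a ratio of means of 1.87, and the libraries of a group lay close together.

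The 19 gamma rows of chromosome 10 were more mixed. Summed, they had 1610 and 2040 in Regenerating, against 996 and 1619 in Non-Regenerating, so that the groups overlapped and replicate 2 was the higher library in each. The row pcdh1g2 had 552 and 598 against 376 and 491, and pcdh1g3 had 179 and 194 against 139 and 130, both without overlap. The row pcdh1gc6 (ENSDARG00000103950) had 33 and 36 against 8 and 15, a fitted log2 change of 1.56 (SE 0.58, adjusted p = 0.370). The row pcdh1g1 had 43 and 114 against 27 and 139 and overlapped, and pcdh1g13 had 268 and 500 against 130 and 288. The row pcdh1g30, at 19 and 12 against 3 and 5, had a fitted log2 change of 1.72 (SE 0.73, adjusted p = 0.433).

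On chromosome 14 the cluster lies on the minus strand between 1887677 and 2327825, with 8 rows that overlap each other and 1, pcdh2g28, that overlaps no gene of the table on its strand. The row pcdh2g28 (ENSDARG00000098788, 1887677 to 2032753) had 4470 and 3742 in Regenerating, against 4344 and 3890 in Non-Regenerating. Its groups overlapped, and the log2 fold change was -0.0074 (SE 0.13, adjusted p = 0.990). The 8 other rows summed to 255 and 331 in Regenerating, against 170 and 228 in Non-Regenerating, without overlap and with a ratio of means of 1.47. Among these, pcdh2ab10 had 51 and 46 against 24 and 23 (log2 fold change 1.01, SE 0.44, adjusted p = 0.439) and pcdh2ab6 had 138 and 184 against 115 and 90. The row pcdh2ab1 ran the other way, with 11 and 33 against 16 and 53, and overlapped.

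**Figure D4:**
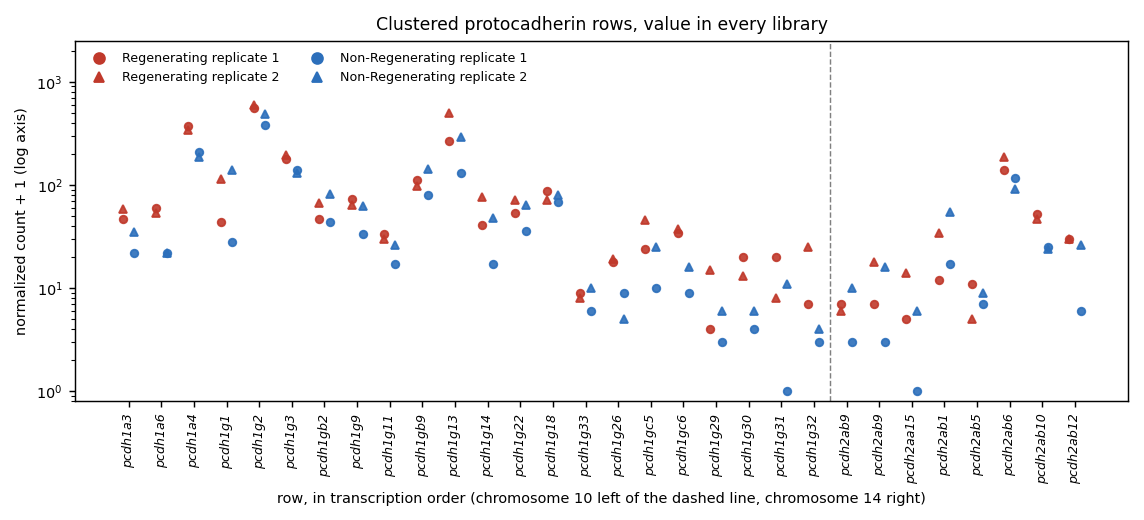
Normalized count + 1 on a log axis (y) in every library for 30 clustered protocadherin rows (x, in transcription order, chromosome 10 left of the dashed line and chromosome 14 right of it; pcdh2g28 is left out); red marks Regenerating and blue Non-Regenerating, circles replicate 1 and triangles replicate 2. The alpha rows at the left (pcdh1a3, pcdh1a6 and pcdh1a4) separate by group, while gamma rows such as pcdh1g1 separate by replicate.

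The proteins that cadherins work with were read from the same fit. Of 38 catenins and adherens junction partners, 31 were in the table and 30 were tested. None had an adjusted p under 0.05, and at an unadjusted p under 0.05 there were 4 above 0 and 3 below 0, or 13.3% and 10%, beside 7.62% and 5.19% of all tested genes, with a median log2 fold change of -0.025 over the list and 0.0013 over all tested genes. The actin regulator gene zyx (zyxin) had 1963 and 2083 in Regenerating against 1119 and 1198 in Non-Regenerating, a fitted log2 change of 0.80 (SE 0.13, adjusted p = 0.164 by limma). The gene plekha7b, whose product is known to link cadherin junctions to microtubules, had 121 and 122 against 39 and 39. The afadin gene afdna had 3549 and 3529 against 2560 and 2843. The beta-catenin gene ctnnb2 had 3362 and 3035 against 4189 and 4036. All 4 genes separated the groups without overlap, the first 3 with higher and ctnnb2 with lower values in Regenerating. These counts shifted when a library was left out, as did the count over all tested genes. Such a fit leaves a single library in a group.

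Cadherin superfamily genes outside the classical and protocadherin groups lay on both sides, with 2 above 0 and 3 below 0 at an unadjusted p under 0.05 among 12 tested, or 16.7% and 25.0%, beside 7.62% and 5.19% of all tested genes. The genes dchs1a, fat1b and celsr1a encode large cadherins of which the Dachsous and Celsr kinds are known from planar cell polarity. The Dachsous gene dchs1a had 69 and 98 in Regenerating against 302 and 202 in Non-Regenerating (log2 fold change -1.57, adjusted p = 0.206 by limma). Its paralogue dchs1b had 3437 and 3384 against 1345 and 2399 (log2 fold change 0.92, adjusted p = 0.302). The gene celsr1a had 379 and 406 against 655 and 643, and fat1b, tested through its Non-Regenerating values alone, had 6 and 3 against 33 and 26. The fat1b paralogue fat1a ran the other way without overlap, at 395 and 193 against 102 and 133 (log2 fold change 1.24, adjusted p = 0.341 by limma). Thus dchs1a and dchs1b, paralogues of each other, differed between the groups in opposite directions, each without overlap.

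Of 7 tested desmosome plaque genes, 1 had an unadjusted p under 0.05, or 14.3%, near the 12.8% of all tested genes. That gene was the desmoplakin gene dspa, at 3771 and 3774 in Regenerating against 2940 and 3060 in Non-Regenerating (log2 fold change 0.33, adjusted p = 0.304 by limma). Its paralogue dspb had 627 and 277 against 1870 and 575 and overlapped, and the periplakin gene ppl had 580 and 920 against 1158 and 1097. Of 17 tested sheddases and transcription factors that act on cadherins, 0 had an unadjusted p under 0.05, beside 12.8% of all tested genes. The 3 with the smallest p were zeb2b (28 and 17 against 41 and 79), zeb1b (1146 and 1087 against 1506 and 1312) and twist1b (32 and 30 against 48 and 106), which belong to families known to repress E-cadherin. All 3 lay lower in Regenerating without overlap, with adjusted p of 0.425, 0.453 and 0.453 by limma. The list of 17 was mixed, with 9 genes below 0 and 8 above 0. Without overlap 4 lay lower (23.5%) and 2 higher (11.8%), beside 21.5% and 21.8% of all tested genes. The related gene twist3 ran the other way, at 26 and 16 against 15 and 10.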

How the data were processed

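RNA of sorted coronary endothelial cells was amplified from about 5 ng per library with a SMART-Seq low-input kit, per the labels' protocols. The submitters' processing notes list the build danRer11 and, without order or role, STAR 2.7.11a, featureCounts 2.0.4, Trimmomatic 0.39, DESeq2 1.36.0 and Picard 3.1.1. The deposited values are normalized counts rounded by the authors, a unit recorded as a score because it is neither a raw count nor a rate, so no count model was used. They keep no exact depth, and single-digit values carry large counting error.

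Values were taken as log2(value + 1) and fitted with limma 3.58.1 in R 4.3.3 (mean-variance trend, 2 residual and 3.08 prior degrees of freedom) over all genes at 10 or more in at least 2 libraries, with Benjamini-Hochberg adjustment and a threshold of 0.05. The added 1 can understate the folds of low genes, while a 0 in a library can make a fitted fold larger than the ratio of means. The row pcdh1g31, with means of 13 in Regenerating and 5 in Non-Regenerating, had a fitted fold of 3.81. With 2 libraries against 2, an exact permutation test of a single gene cannot go below p = 0.333. The fit was tested on simulated data.

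Named genes were 17 vascular or well-known members, the 12 tested members of smallest p, the 5 of highest mean, and the 3 of smallest p in each partner list. Other genes were chosen after their values were seen. Members and lists were chosen with earlier results of these data known. Coding lengths and sequences were not used here, so levels per length are not given. Alternatives were other filters, pseudocounts and scalings, no trend, the replicate block, leaving out each library and, added after seeing the data, a ratio to cdh5.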

Additional observations from a re-analysis of the deposited data

How the results depend on the processing

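The libraries of the groups share replicate numbers, but nothing in the labels says that a number marks a shared animal or day. Deviations of same-numbered libraries from their group means correlated at 0.339 over 16928 genes, with only 2 numbers. With the replicate block, 2 cadherins or protocadherins were called at an adjusted p under 0.05 by limma, cdh4 (0.0193) and pcdh19 (0.0352), beside 357 of all tested genes, and 5 catenins and partners lay below 0 at an unadjusted p under 0.05, a threshold that 20.6% of all tested genes passed with the block and 12.8% without it. No other setting that kept all 4 libraries called a member, and each of them called at most 1 of all tested genes. Members above 0 at an unadjusted p under 0.05 numbered 4 with a filter of 50, 4 with quantile scaling and 11 without the variance trend, and 3 to 7 when a library was left out. Members below 0 numbered 2 in every setting that kept all 4 libraries, except with no filter. Catenins and partners below 0 numbered 0 without the trend and 0 to 4 when a library was left out, and those above 0 numbered 2 to 4. The median over tested members was 0.32 with a filter of 50, 0.38 with quantile scaling and 0.41 to 0.75 when a library was left out. The cause of these shifts was not tested, apart from the 25 members that a filter of 50 leaves. Among named members, the fold change turned in sign for pcdh2g28 (0.040 with quantile scaling, 0.0050 with equal totals, 0.066 as a ratio to cdh5, -0.14 to 0.12 without a library), and when a library was left out for cdh11 (-0.66 to 0.082), cdh2 (-0.31 to 0.94), pcdh10b (-1.37 to 0.95), pcdh12 (-0.10 to 0.41) and pcdh18a (-1.80 to 0.93). All other named members kept their direction under every alternative run. With no filter, 8 members lay above 0 and 3 below 0 at an unadjusted p under 0.05. The 14 untested members, 9 of which reached 10 in 1 library, carry large counting error.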

Other observations

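Some rows with cadherin names in the protein annotation lie outside the symbol rule. They include PCDH8 (values of 2 and 3 in Regenerating, against 5 and 11 in Non-Regenerating), CDH18 (6 and 10 against 11 and 8), si:dkey-30c15.12, annotated as Cadherin-1 (8 and 7 against 0 and 1), and si:ch211-186j3.6, annotated as Neural-cadherin (5 and 35 against 15 and 23), all at low values. The gene cped1, named for a cadherin-like domain, had 1089 and 1851 in Regenerating against 2816 and 2990 in Non-Regenerating.

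Ratios within a library, chosen after the values were seen, do not depend on the scaling between libraries. The ratio of pcdh19 to pcdh17 was 0.366 and 0.327 in Regenerating, against 0.0215 and 0.0263 in Non-Regenerating. Its gap is wider than that of pcdh19 alone, because pcdh17 was itself lower in Regenerating. The ratio of cdh4 to cdh2 was 0.011 and 0.0112 in Regenerating, against 0.124 and 0.267 in Non-Regenerating.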
